A study of Mus musculus with 12 samples.

Results

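Interferon-gamma protein (IFNg, 100 ng/mL) was compared with a control IgG antibody (clone 2A3, 10 µg/mL) in 3-dimensional cultures of mouse MC38 tumours, 3 samples against 3, after 6 days. These 6 samples were taken from the 12 of the study by the treatment in their labels, and the comparison listed 15435 genes of the 16399 listed in any of the study's 5 comparisons. MC38 is a mouse colon carcinoma line. Tumours from C57BL/6 albino mice had been dissociated, and a size-selected fraction of the pieces was embedded in collagen inside microfluidic chips, so that the RNA came from tumour cells and from whatever host cells that fraction still held. The labels name no antibody for the IFNg wells, so as labelled the groups differed in the cytokine and in the IgG. Values from the other 2 groups, an antibody against the inhibitory T cell receptor PD-1 (aPD-1, clone RMP1-14, 10 µg/mL) and that antibody with an antibody against CD8 (aPD-1+CD8, 10 µg/mL each), are given beside the results. RNA was lysed in the chips and sequenced after exome capture, which measures the genes its probes cover. The labels do not tie replicates to separate animals or cultures. The p-values therefore reflect the variation among these 6 libraries alone, and that variation may be technical.

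Interferon-gamma is a cytokine made mainly by T cells and NK cells. It binds a receptor of Ifngr1 and Ifngr2 chains, whose kinases Jak1 and Jak2 start a signal to the nucleus. Genes with GAS elements in their promoters are then induced, among them Irf1 and other interferon regulatory factors, which bind the related ISRE element. The genes induced encode antigen presentation, chemokines for T cells and defence GTPases, and in fibroblasts the cytokine is known to lower collagen synthesis.

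The values were the authors' DESeq2 results, with a mean normalized count over both groups, a log2 fold change and an adjusted p for each gene. A gene is called higher or lower where that adjusted p is under 0.05, without a minimum change. The deposited fold changes appear shrunken towards 0, which makes the change of a gene with few or uneven counts look smaller. The mean level of each group was therefore also worked out from the mean counts of the 5 tables. A level below is such a group mean in normalized counts, with no SD because the tables hold no values of single samples. Levels that could not be told from 0 are written as near 0. In bulk RNA, fewer cells of a type and less RNA per cell cannot be told apart. Depth per sample is unknown; of the summed mean counts, 28.9% fell on the ribosomal RNA precursor Rn45s. Of the 10 listed epithelial and MC38 markers, with a summed level of 1152 with IFNg and 1270 with IgG, Cd44, which many cell types express, had a mean count of 1025 in the authors' deposited table. The defining epithelial markers on that list were low, with mean counts of 0.563 for Epcam, 0.638 for Krt18, 1.21 for Cdh1 and 2.97 for Krt8, and none of the 4 markers tested passed. One feature of the IFNg samples bears on all results: DESeq2 leaves the p-value blank where a count in a single sample lies far from its group, and this was so for 67 genes in IFNg v IgG and 43 in IFNg v aPD-1, against 2 to 5 genes in the comparisons without IFNg samples. These 67 genes could not be called and are described at the end.

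Of 11478 genes with an adjusted p, 471 (4.1%) were called, 313 higher (2.73%) and 158 lower (1.38%) with IFNg. The raised genes reached larger changes than the lowered ones. An absolute log2 fold change of at least 1 was reached by 157 of the 313 genes higher and by 33 of the 158 lower, and the median absolute log2 ratio of the group levels was 1.37 over 307 genes higher and 0.83 over 152 genes lower. The median log2 fold change over all genes tested was 0.01, with 5919 of them above 0. With p-values adjusted over every gene that had one, 426 genes passed, and of the called genes named below Cdk2, Tfrc, Osmr, Timp2, Tfec and Clec7a did not.

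**Figure D1:**
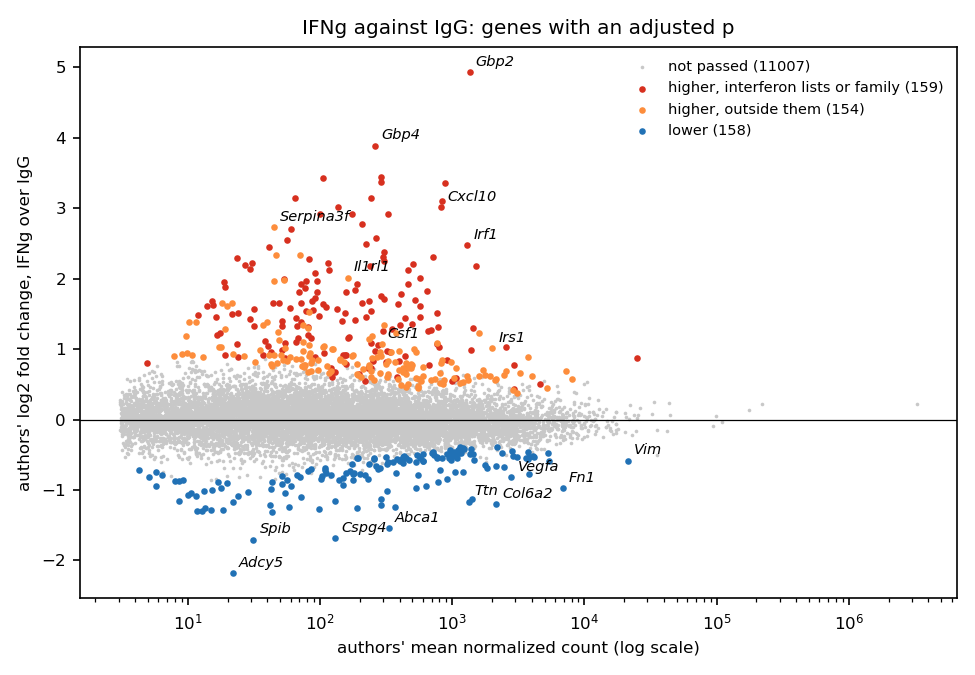
Each point is a gene with an adjusted p, placed by the authors' mean normalized count (log scale) and their shrunken log2 fold change of IFNg over IgG, with called genes coloured and their number in brackets. The points reach 4.93 upward at Gbp2 and -2.18 downward at Adcy5, and the lowered genes crowd nearer to 0 than the raised interferon genes.

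Classic interferon genes led the raised genes, and none of them was lower. Of 186 tested genes in 6 interferon lists, 136 were higher and 0 lower, and of 86 tested in a broader list of interferon-inducible genes, 14 were higher and Peli1, a ubiquitin ligase of Toll-like receptor signalling, was lower. The largest change was that of the guanylate-binding protein Gbp2, with levels of 2645 with IFNg, 65.3 with IgG, 78.3 with aPD-1 and 46.1 with aPD-1+CD8 and a log2 change of 4.93 ± 0.16 (SE; adjusted p = 4.45e-210) in the authors' deposited table. Its level was low in every group without IFNg. Among guanylate-binding proteins and immunity-related GTPases, which attack vacuoles that hold microbes, 15 of 16 tested were higher. The chemokine Cxcl10 had levels of 1489 with IFNg against 154 with IgG, and Irf1, an early interferon regulatory factor, had 2246 with IFNg against 356 with IgG. The chains and kinases that receive the signal did not pass: the authors' deposited table gave Ifngr1 -0.06 ± 0.25 (SE), Ifngr2 0.06 ± 0.26 (SE), Jak1 0.03 ± 0.13 (SE) and Jak2 0.30 ± 0.19 (SE).

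Antigen presentation rose in both classes. Of 21 tested genes of class I presentation, 16 were higher. Of 9 tested in class II, 5 were higher, namely the invariant chain Cd74 (191 against 11.3, IFNg against IgG), H2-Eb1 (36.6 against 0.91), H2-Ab1 (29.7 against 1.14), H2-Aa (27.2 against 0.879) and their master activator Ciita (23.7 against near 0). H2-DMa, an editor of class II peptides, missed the threshold in the authors' deposited table at 0.83 ± 0.28 (SE; adjusted p = 0.0624). Cd274, the gene of the PD-1 ligand PD-L1, had levels of 94.2 with IFNg, 13.5 with IgG, 8.99 with aPD-1 and 11.5 with aPD-1+CD8, and it was the only one of 11 tested inhibitory and costimulatory ligands called. Of the ADP-ribosyltransferases linked to interferon, 7 of 8 tested were higher, with Parp12 at 850.1 with IFNg against 162 with IgG.

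Outside both kinds of list lay 163 of the 313 genes higher. Of these, 9 belong to interferon families by their RefSeq name or synonym, a rule chosen after their values were seen. They include Gm12250 (Irgb10, an immunity-related GTPase; 205 with IFNg against 8.04 with IgG), AI607873 (Ifi207, a member of the DNA-sensing p200 family; 536 with IFNg against 75.9 with IgG), Gm12185 (Irgb2b1; 116 with IFNg against 6.01 with IgG), Gm4841 (Ifgga3; 47.0 with IFNg against near 0 with IgG) and Pydc4 (Ifi213; 59.2 with IFNg against 1.64 with IgG). Reads may be shared among close copies within these families, so their separate values are uncertain. The other 154 genes had a median absolute log2 fold change of 0.81. Function lists described below can also hold genes of the interferon or broad lists, such as Ccl2, so their counts are not limited to these 154.

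The first of the 154 genes outside the lists and families was Serpina3f, a serine protease inhibitor of the antichymotrypsin cluster. Its level was 89.5 with IFNg against near 0 with IgG and near 0 in both aPD-1 groups. In the authors' deposited table it rose by 2.74 ± 0.28 (SE; adjusted p = 4.48e-20). Its neighbour in the cluster, Serpina3g, had 33.9 with IFNg against 2.39 with IgG; reads may be shared between the copies. The complement gene C4b was higher too, at 22.1 with IFNg, near 0 with IgG, 33.9 with aPD-1 and 2.66 with aPD-1+CD8. Of 15 tested genes of complement and the acute phase, these 3 were higher and none lower, with a median log2 fold change of 0.44 over the list.

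**Figure D2:**
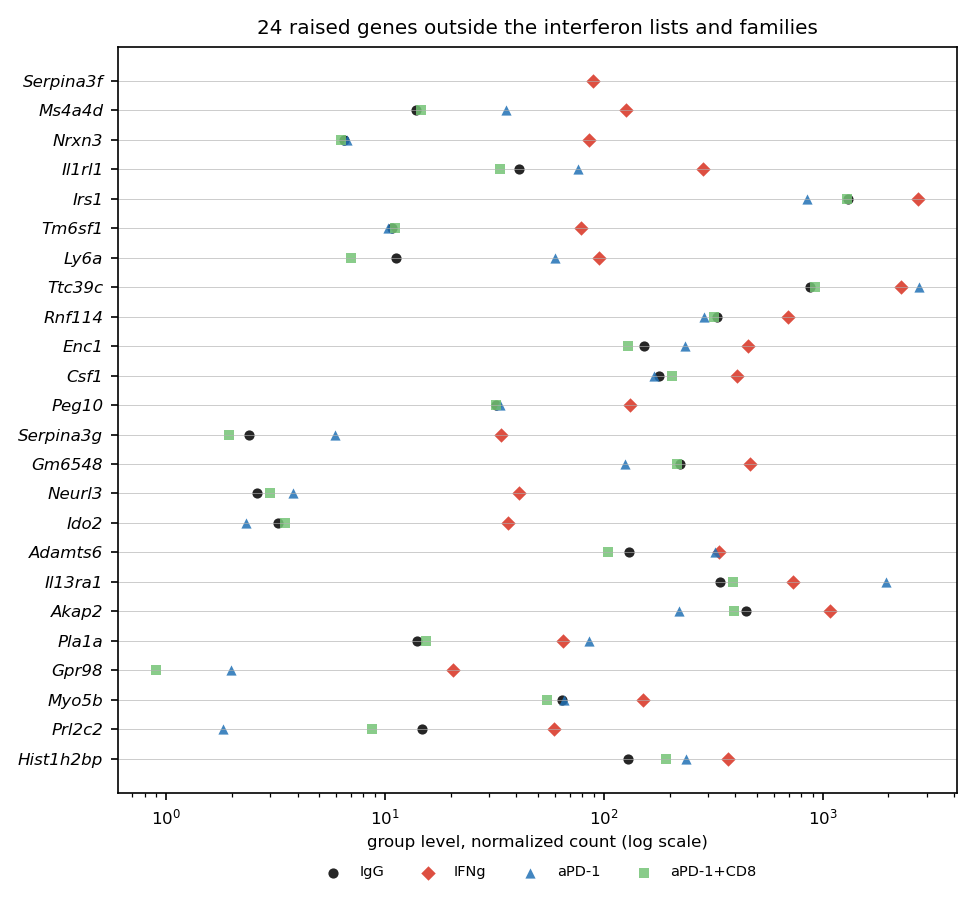
Group levels (normalized counts, log scale) of the 24 genes with the smallest adjusted p among those higher outside the interferon lists and families; each row is a gene and each mark a group mean without error, left out where it could not be told from 0. The IFNg mark is the rightmost in most rows, with aPD-1 further right for Ttc39c, Il13ra1 and Pla1a.

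Receptors and ligands of cytokines and growth factors were among the raised genes. Il1rl1, which encodes the IL-33 receptor ST2, had levels of 283 with IFNg, 41.2 with IgG, 76.7 with aPD-1 and 33.5 with aPD-1+CD8. The authors' deposited table gave it a log2 change of 2.01 ± 0.25 (SE; adjusted p = 8.50e-14). Il13ra1, a receptor chain for IL-13 and IL-4, had levels of 732 with IFNg, 342 with IgG, 1946 with aPD-1 and 391 with aPD-1+CD8, so that the aPD-1 group stood above the IFNg group. Il18rap, the accessory chain of the IL-18 receptor, had 121 with IFNg against 28.0 with IgG. The macrophage growth factor Csf1 had levels of 406 with IFNg, 179 with IgG, 171 with aPD-1 and 205 with aPD-1+CD8, and in the authors' deposited table it rose by 1.07 ± 0.16 (SE; adjusted p = 8.03e-09). Of 22 tested genes of the list of cytokines and cytokine receptors, 5 were higher, namely Il1rl1, Il13ra1, Csf1, Il15 and Il15ra, and none was lower; Il18rap is not on that list.

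The IL-6 family moved in one direction as far as it passed. Lif, a cytokine that signals through Stat3, had levels of 116 with IFNg, 50.2 with IgG, 744 with aPD-1 and 35.6 with aPD-1+CD8, and in the authors' deposited table it rose by 0.91 ± 0.23 (SE; adjusted p = 0.00315) with IFNg. Osmr, the oncostatin M receptor, had 103 with IFNg, 39.8 with IgG, 268 with aPD-1 and 50.4 with aPD-1+CD8. With Socs3 and Pim1, targets of Stat3, 4 of 20 tested members of the list were higher and 0 lower, while Stat3 itself did not pass, at 0.31 ± 0.19 (SE) in the authors' deposited table. For Lif, Osmr and Socs3 the aPD-1 level was above the IFNg level, Socs3 reaching 1044 there against 133 with IFNg.

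Of 30 tested receptor tyrosine kinases and ligands, Fgf7 and Epha2 were higher and Mertk was lower, with a median log2 fold change of -0.03. Other genes of growth factor families by name, picked after their values were seen, went either way. Gdnf, a neurotrophic factor, had 545 with IFNg against 246 with IgG. Fgf10 had 629 with IFNg against 118 with IgG and Fgf7, its relative that acts on epithelium, had 157 with IFNg against 52.7 with IgG. The deposited change of Fgf10, 1.23 ± 0.28 (SE; adjusted p = 6.70e-04) in the authors' deposited table, was far below the log2 ratio of its levels, 2.41. Fgf14 and Fgf11, which belong to the FGF family by name, were lower. Fgf14 had 0.63 with IFNg against 16.5 with IgG and Fgf11 had 32.7 with IFNg against 70.0 with IgG. The receptor tyrosine kinase Epha2 had levels of 596 with IFNg, 298 with IgG, 98.4 with aPD-1 and 323 with aPD-1+CD8. The aPD-1 level was the lowest of the 4.

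Among signalling proteins, Irs1, the adaptor of the insulin and IGF1 receptors, had levels of 2725 with IFNg, 1303 with IgG, 851 with aPD-1 and 1289.7 with aPD-1+CD8. In the authors' deposited table it rose by 1.01 ± 0.13 (SE; adjusted p = 2.57e-13). Of 24 tested genes of the NF-kB and TNF response, 4 were higher and 0 lower: the chemokine Ccl2 (494 against 118), the inhibitors Nfkbia (3812 against 2101) and Nfkbib (71.5 against 33.5), and the apoptosis inhibitor Birc3 (76.6 against 35.3). The NF-kB subunits did not pass; the authors' deposited table gave Nfkb1 0.29 ± 0.14 (SE) and Rela 0.06 ± 0.14 (SE). Zfp36, which destabilises cytokine mRNAs, had 89.5 with IFNg against 41.9 with IgG, and Junb, an AP-1 subunit, had 706 with IFNg against 465 with IgG. The list of AP-1 and EGR immediate early factors had 2 higher and 1 lower of 22 tested, with a median log2 fold change of 0.06. Of 20 tested YAP and TEAD targets and regulators, Ajuba (593 against 339.7), Ankrd1 (99.4 against 50.9) and Amotl2 (103 against 51.1) were higher and none lower.

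The ubiquitin ligase Rnf114 had 692 with IFNg against 329 with IgG, and the ligase Neurl3 had 41.0 with IFNg against 2.60 with IgG. Ly6a, the surface protein Sca-1 that is commonly raised by interferons, had levels of 94.9 with IFNg, 11.3 with IgG, 60.1 with aPD-1 and 6.98 with aPD-1+CD8. Other genes near the top were Ms4a4d (127 against 14.0), the synaptic adhesion gene Nrxn3 (86.0 against 6.49), Tm6sf1 (78.7 against 10.8), Ttc39c (2293 against 879), the actin-binding Enc1 (456 against 152) and the imprinted, retrotransposon-derived Peg10 (132 against 32.1). For Nrxn3, Tm6sf1 and Peg10 the 3 groups without IFNg stood close together, at 32.1, 33.7 and 32.2 for Peg10 in IgG, aPD-1 and aPD-1+CD8.

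Metabolic enzymes that use tryptophan, purines and NAD were raised. Of 21 tested in that list, 7 were higher and none lower, with a median log2 fold change of 0.28. Ido1 and Ido2 open the tryptophan ring in kynurenine synthesis; Ido2 had 36.4 with IFNg against 3.26 with IgG and Ido1 had 30.4 with IFNg against near 0 with IgG. Xdh, the last enzyme of purine breakdown to uric acid, had levels of 1117 with IFNg, 566 with IgG, 1200.3 with aPD-1 and 551 with aPD-1+CD8. Irg1 (Acod1), which makes itaconate, had 15.9 with IFNg against 2.36 with IgG, and Nampt, which recycles nicotinamide into NAD, had 5507 with IFNg against 3802 with IgG. Of 21 tested genes of iron, zinc and copper handling, the iron importer Slc11a2 (537 against 307), the metal reductase Steap2 (243 against 111) and the transferrin receptor Tfrc (522 against 369.5) were higher and none lower. Nos2, the inducible nitric oxide synthase, did not pass, with levels of 109 with IFNg against 8.66 with IgG and a deposited change of 0.69 ± 0.24 (SE; adjusted p = 0.0792) in the authors' deposited table.

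Many replication-dependent histone genes were raised. This set, picked by the symbols beginning with Hist after values had been seen, had 58 genes listed and 54 tested. In the tested genes, 17 were higher, 0 lower and 51 had a log2 fold change above 0, with a median of 0.52. Over all 11478 genes tested, 2.73% were higher and 5919 had a log2 fold change above 0. The abundant Hist1h2bm had levels of 9161 with IFNg, 5318 with IgG, 6727 with aPD-1 and 5917 with aPD-1+CD8, and Hist1h2bp had 369.7 with IFNg, 129 with IgG, 238 with aPD-1 and 192 with aPD-1+CD8. Their sequences are close to one another, so values of single genes are uncertain. H3f3a, a histone variant gene whose expression is not tied to S phase, was picked here after its value was seen. It was lower, at 2969.8 with IFNg, 4481 with IgG, 9047 with aPD-1 and 4394 with aPD-1+CD8. The lists of DNA replication (38 tested) and mitosis (32 tested) gave 1 gene higher and 1 lower between them, the E-type cyclins Ccne1 (64.1 against 30.9) and Ccne2 (149 against 289).

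The promoters of the raised genes differed in what letters they held. Promoter sequences were taken from RefSeq (GRCm38.p6) for 9111 of the 11478 tested genes, as the 250 bases before the start, and searched on either strand for GAS (TTCNNNGAA) and ISRE (GAAA, any 2 bases, GAAA) matches. A match to either was present in 42 of 111 genes higher in the interferon and broad lists, 37.8% (exact 95% interval 28.8 to 47.5), and in 759 of 9111 tested genes, 8.33%. Among the genes higher outside the lists and families it was present in 8 of 118, 6.78% (2.97 to 12.9), and among the genes lower in 7 of 108, 6.48% (2.65 to 12.9). Over all 27025 RefSeq promoters of that length the share was 9.79%. Of 6 promoters of raised genes set apart by family name, 5 held a match, 83.3% (35.9 to 99.6). That family rule was chosen after the values were seen. Only with those genes set apart did the 6.78% arise, and its interval included the share over all tested genes. The shares were not tested against each other. A match describes letters only, and the intervals cover counting error only. Shown here are the 4 genes with the smallest adjusted p outside the lists that held a match, 3 of them interferon family by name, and Abca1, the lowered gene with the smallest adjusted p, which held none; capitals mark GAS or ISRE matches, and each is read 5′ to 3′ on the strand of its gene.
Gm12250 (plus strand): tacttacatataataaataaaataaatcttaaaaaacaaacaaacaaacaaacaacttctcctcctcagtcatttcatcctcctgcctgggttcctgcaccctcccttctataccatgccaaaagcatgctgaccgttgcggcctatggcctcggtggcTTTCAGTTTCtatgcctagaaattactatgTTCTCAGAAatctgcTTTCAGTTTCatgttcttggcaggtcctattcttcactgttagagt
AI607873 (minus strand): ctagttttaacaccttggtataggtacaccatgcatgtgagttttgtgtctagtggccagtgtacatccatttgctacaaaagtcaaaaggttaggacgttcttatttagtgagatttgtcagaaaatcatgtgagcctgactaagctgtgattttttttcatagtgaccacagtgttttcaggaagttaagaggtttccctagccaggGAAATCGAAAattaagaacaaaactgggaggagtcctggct
Gm12185 (minus strand): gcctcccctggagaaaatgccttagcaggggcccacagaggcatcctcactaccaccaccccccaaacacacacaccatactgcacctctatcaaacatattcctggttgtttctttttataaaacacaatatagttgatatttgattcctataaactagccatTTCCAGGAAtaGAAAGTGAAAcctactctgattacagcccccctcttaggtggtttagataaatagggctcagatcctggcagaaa
Serpina3f (plus strand): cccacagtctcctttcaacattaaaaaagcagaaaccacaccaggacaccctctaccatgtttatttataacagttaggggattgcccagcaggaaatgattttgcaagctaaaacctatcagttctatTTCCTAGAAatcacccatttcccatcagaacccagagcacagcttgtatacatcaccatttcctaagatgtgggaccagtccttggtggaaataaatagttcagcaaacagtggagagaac
Abca1 (minus strand): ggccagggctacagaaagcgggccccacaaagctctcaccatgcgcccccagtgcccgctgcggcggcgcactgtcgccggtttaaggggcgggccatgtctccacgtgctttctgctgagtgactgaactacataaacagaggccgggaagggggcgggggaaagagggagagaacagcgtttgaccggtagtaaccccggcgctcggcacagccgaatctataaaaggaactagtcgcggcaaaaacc
In Gm12250 the GAS match began 61 bases before the start, between ISRE matches at 91 and 46. In Gm12185 a GAS match at 86 stood beside an ISRE match at 75. AI607873 held a single ISRE match at 41 and Serpina3f a single GAS match at 121 bases before the start.

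The 158 lowered genes included 157 outside all interferon lists. Abca1, the transporter that loads cholesterol onto apolipoproteins, headed them with levels of 155 with IFNg, 510.0 with IgG, 830.2 with aPD-1 and 412 with aPD-1+CD8. In the authors' deposited table it fell by 1.54 ± 0.18 (SE; adjusted p = 6.31e-16). Its level with IFNg was the lowest of the 4 groups and that with aPD-1 the highest. The other 22 tested genes of cholesterol synthesis and uptake did not pass. Adcy5, an adenylyl cyclase that makes cyclic AMP, changed the most of the lowered genes, by -2.18 ± 0.28 (SE; adjusted p = 1.20e-12) in the authors' deposited table. Its levels were near 0 with IFNg, 43.5 with IgG, 1.18 with aPD-1 and 36.3 with aPD-1+CD8, so that both the IFNg and the aPD-1 group lay far below IgG.

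**Figure D3:**
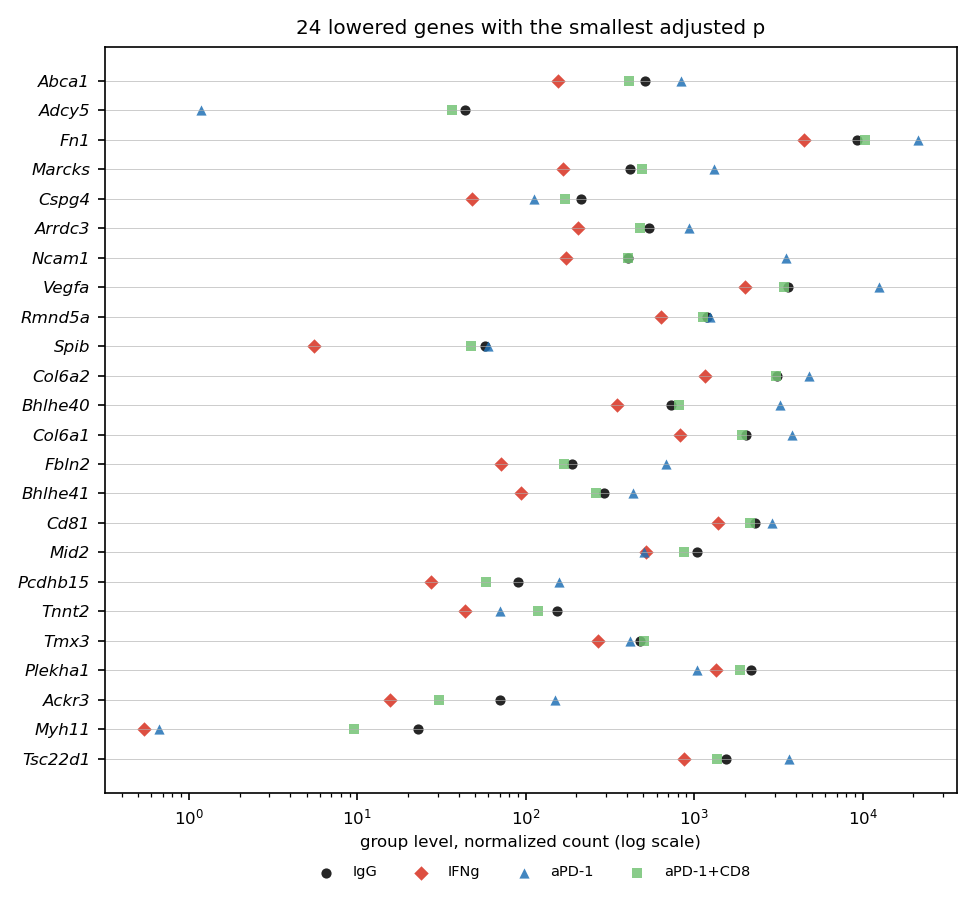
Group levels (normalized counts, log scale) of the 24 lowered genes with the smallest adjusted p; each row is a gene and each mark a group mean without error, left out where it could not be told from 0. IgG and aPD-1+CD8 lie close together in most rows, IFNg lies to their left, and aPD-1 lies to the right of them for Fn1, Marcks, Ncam1 and Vegfa but to the left for Cspg4, Tnnt2 and Myh11.

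Of the function lists, that of collagens held the most lowered genes. Of 24 tested genes of collagens and their crosslinking, 5 were lower and none higher, with a median log2 fold change of -0.18. Col6a2 and Col6a1, chains of the microfibrillar collagen VI, had 1160.2 with IFNg against 3112 with IgG and 823 with IFNg against 2025 with IgG, and in the authors' deposited table Col6a2 fell by 1.20 ± 0.20 (SE; adjusted p = 3.46e-07). The fibrillar collagen genes Col3a1 and Col1a1 had 196 with IFNg against 451 with IgG and 381 with IFNg against 883 with IgG, and Col5a1, which nucleates fibrils, had 764 with IFNg against 1195 with IgG. The third chain of collagen VI, Col6a3, did not pass, at -0.41 ± 0.15 (SE; adjusted p = 0.126) in the authors' deposited table, and neither did Col1a2, the partner of Col1a1, at -0.32 ± 0.27 (SE; adjusted p = 0.776) in the authors' deposited table.

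Of 25 tested matricellular proteins and proteoglycans, 4 were lower and 1 higher. The list had a median log2 fold change of 0.03, with 14 members above 0. Over all 11478 genes tested, 1.38% were lower. Fn1, fibronectin, had levels of 4518 with IFNg, 9211 with IgG, 21394 with aPD-1 and 10362 with aPD-1+CD8, and it fell by 0.98 ± 0.13 (SE; adjusted p = 1.24e-12) in the authors' deposited table. Fbln2 and Fbln5, fibulins of elastic fibres, had 71.6 with IFNg against 188 with IgG and 130.3 with IFNg against 218 with IgG, and Sparc, a collagen-binding glycoprotein, had 2905 with IFNg against 4354 with IgG. Dcn, the collagen-coating proteoglycan decorin, went the other way, with 1008 with IFNg against 611 with IgG and a rise of 0.66 ± 0.15 (SE; adjusted p = 0.00116) in the authors' deposited table. Other matrix genes lowered were Ltbp4 (1818 against 3129.6), which holds latent TGF-beta, the protease inhibitor Timp2 (963 against 1381) and the laminin chain Lama4 (11.7 against 45.0). For Fn1, Col3a1, Col5a1 and Fbln2 the aPD-1 level was above that of IgG.

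Some genes known from pericytes, smooth muscle and striated muscle were lower, although the list of actin, myosin and muscle-type cytoskeleton as a whole held few calls: of 26 tested, Ttn and Des were lower, Acta2 was higher and 23 did not pass, with a median log2 fold change of -0.08. Cspg4, the NG2 proteoglycan of pericytes, had levels of 48.0 with IFNg, 213 with IgG, 112 with aPD-1 and 171 with aPD-1+CD8, and it fell by 1.68 ± 0.23 (SE; adjusted p = 2.35e-11) in the authors' deposited table. Myh11, smooth muscle myosin, had 0.538 with IFNg, 22.8 with IgG, 0.668 with aPD-1 and 9.54 with aPD-1+CD8. Tnnt2, cardiac troponin T, had 43.3 with IFNg, 153 with IgG, 70.7 with aPD-1 and 119 with aPD-1+CD8, and Ttn, titin, had 504 with IFNg, 2157 with IgG, 339 with aPD-1 and 1610.3 with aPD-1+CD8. In Myh11, Tnnt2 and Ttn the aPD-1 group lay below IgG as well. Des, the muscle intermediate filament, had 94.1 with IFNg against 203 with IgG, Foxs1, a forkhead factor of pericytes, had 18.2 with IFNg against 66.1 with IgG, and Colq, the collagen tail of acetylcholinesterase, had near 0 with IFNg against 26.8 with IgG. Acta2, smooth muscle actin, moved up from a low level, with 19.0 with IFNg against 0.517 with IgG.

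Because these genes mark fibroblasts and mural cells, their marker list is given whole. Of its 13 tested members, Cspg4, Col3a1, Des, Fap and Col1a1 were lower, Acta2 and Dcn were higher and 6 did not pass, among them Pdgfrb at -0.08 ± 0.24 (SE; adjusted p = 0.981) and Pdgfra at 0.50 ± 0.22 (SE; adjusted p = 0.283) in the authors' deposited table. The summed level of the 16 listed markers was 3083 with IFNg, 3565 with IgG, 9750.2 with aPD-1 and 3177 with aPD-1+CD8. Whether the number of such cells differed between the groups was not tested. Vim, the mesenchymal intermediate filament, was lower at 16471 with IFNg, 25997 with IgG, 16409.7 with aPD-1 and 23787 with aPD-1+CD8, whereas Twist1 (471 against 306) and Twist2 (486 against 247), transcription factors of mesenchymal cells, were higher.

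A minority of adhesion and guidance genes were lower. The counts were 1 lower of 13 tested integrins, 2 of 19 cadherins and protocadherins and 1 of 10 epithelial junction and keratin genes, with none higher, and 2 lower and 1 higher of 28 axon guidance genes. Median log2 fold changes were -0.08, 0.02, -0.29 and -0.05 in that order. At an adjusted p under 0.01 in the authors' deposited table no integrin and no cadherin or protocadherin of the lists was called. Ncam1, the neural cell adhesion molecule, had levels of 172 with IFNg, 402 with IgG, 3513 with aPD-1 and 405 with aPD-1+CD8, and it fell by 1.13 ± 0.17 (SE; adjusted p = 3.27e-09) in the authors' deposited table. The clustered protocadherins Pcdhb15 (27.6 against 90.2), Pcdhb17 (78.5 against 138) and Pcdhgc3 (763 against 1120.5) were lower; reads of neighbouring copies may be shared. Jup, the junction protein plakoglobin, had 10.1 with IFNg against 38.2 with IgG, and Itga1, an integrin that binds collagen, had 32.5 with IFNg against 88.5 with IgG. Nrp1 and Plxna2, receptors of semaphorins, had 36.3 with IFNg against 77.2 with IgG and 463 with IFNg against 742 with IgG, while Ntn1, the guidance ligand netrin, was higher at 201 with IFNg against 103 with IgG. Marcks, a substrate of protein kinase C at the membrane skeleton, had levels of 165 with IFNg, 414 with IgG, 1306 with aPD-1 and 493 with aPD-1+CD8 and a change of -1.21 ± 0.16 (SE; adjusted p = 1.07e-11) in the authors' deposited table. Cd81, a tetraspanin, had 1386 with IFNg against 2289.9 with IgG.

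Of 28 tested genes of glycolysis and hypoxia, 3 were lower and none higher, with a median log2 fold change of -0.11 and 12 above 0. The share called was 10.7%, against 4.1% of all genes tested. Vegfa, the angiogenic growth factor, had levels of 1998 with IFNg, 3611 with IgG, 12571 with aPD-1 and 3413 with aPD-1+CD8, and it fell by 0.82 ± 0.12 (SE; adjusted p = 4.87e-09) in the authors' deposited table. Ero1l, the oxidase of disulfide formation in the endoplasmic reticulum, had 745 with IFNg against 1358 with IgG, and Pdk1, which inhibits pyruvate dehydrogenase, had 324 with IFNg against 525 with IgG. The glycolytic enzymes themselves did not pass, with Gapdh at 0.10 ± 0.16 (SE) and Pgk1 at -0.02 ± 0.18 (SE) in the authors' deposited table. Ddit4, an inhibitor of mTORC1 that hypoxia and glucocorticoids induce, had 155 with IFNg against 308 with IgG. Tsc22d3, another glucocorticoid target, had 277 with IFNg against 437 with IgG.

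Lowered transcription factors included the paired repressors Bhlhe40 and Bhlhe41, which act on the circadian clock. Bhlhe40 had levels of 348 with IFNg, 727 with IgG, 3241 with aPD-1 and 818 with aPD-1+CD8 and Bhlhe41 had 94.0 with IFNg, 289.7 with IgG, 435 with aPD-1 and 261 with aPD-1+CD8. They were the 2 lower genes among 16 tested of the clock list, which had none higher and a median log2 fold change of -0.23; Nr1d1, a clock repressor, missed the threshold at -0.40 ± 0.13 (SE; adjusted p = 0.0615) in the authors' deposited table. Spib, an Ets factor known from lymphoid and gut cells, had 5.53 with IFNg, 57.1 with IgG, 59.5 with aPD-1 and 47.5 with aPD-1+CD8, and it fell by 1.70 ± 0.28 (SE; adjusted p = 1.07e-07) in the authors' deposited table. Klf4, a factor of epithelial and smooth muscle differentiation, had 115 with IFNg against 243 with IgG. Prdm1, a transcriptional repressor that acts in lymphoid differentiation, had 97.4 with IFNg against 203 with IgG.

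A few genes of Notch and TGF-beta signalling were lower, and most tested members did not pass. Of 17 tested genes of Notch and Hedgehog signalling, the ligand Jag1 (2652 against 5039), the receptor Notch1 (618 against 929.9) and the target Hey1 (4.29 against 22.3) were lower and none higher. A further target, Hes1, missed the threshold at -0.81 ± 0.27 (SE; adjusted p = 0.0651) in the authors' deposited table, and Notch2 was at -0.09 ± 0.16 (SE; adjusted p = 0.94) there. Of 28 tested genes of TGF-beta and BMP signalling, the receptor Tgfbr1 (320.2 against 494) and the effector Smad3 (893 against 1263) were lower and none higher. Smad2 and Smad4 did not pass, at -0.21 ± 0.14 (SE) and -0.27 ± 0.13 (SE) in the authors' deposited table. The Notch and Hedgehog list had a median log2 fold change of -0.02, with 7 of 17 above 0. For the TGF-beta and BMP list the median was 0.02, with 15 of 28 above 0. The shares called were 17.6% and 7.14%, against 4.1% of all genes tested. In the G1 list, Rb1 (46.9 against 94.5) and Cdk2 (1049 against 1426) were the members lowered of 19 tested.

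A number of lowered genes are known from macrophages. Mrc1, the mannose receptor, had 1.93 with IFNg against 23.5 with IgG, and Mertk, a receptor for dying cells, had 93.2 with IFNg against 186 with IgG; they were the 2 lower of 17 tested macrophage markers, with none higher and a median log2 fold change of -0.15. Picked after their values were seen, Mmp12 (5.01 against 31.8), Clec7a (1.01 against 11.7), Ccl6 (near 0 against 11.5), Atp6v0d2 (1.86 against 19.4) and Tfec (near 0 against 8.63), all at low levels, were also lower. General markers did not pass: the authors' deposited table gave Cd68 -0.14 ± 0.25 (SE), Spi1 -0.12 ± 0.28 (SE) and Ptprc -0.26 ± 0.28 (SE). A log2 fold change above 0 was seen in 4 of the 17 tested macrophage markers. Cd14 had 0.72 ± 0.28 (SE; adjusted p = 0.16) in the authors' deposited table and did not pass. The summed level of the 23 listed macrophage markers was 682 with IFNg, 511 with IgG, 361 with aPD-1 and 464 with aPD-1+CD8. Without Csf1r, which had no p-value, the sums were 328 with IFNg and 484 with IgG. Of 10 listed T and NK cell markers, 8 had a mean count under 1, Cd3d, Cd4, Cd8b1, Gzmb and Prf1 among them, and without Eomes and Lck their summed level was 2.26 with IFNg and 2.83 with IgG. Ackr3, an atypical receptor that takes up Cxcl12 and belongs to no macrophage list, had 15.7 with IFNg, 70.4 with IgG, 149.9 with aPD-1 and 30.5 with aPD-1+CD8.

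Arrdc3, an arrestin-like regulator of receptor traffic, had 203 with IFNg against 536 with IgG. Rmnd5a, a subunit of the CTLH ubiquitin ligase, had 638 with IFNg against 1197 with IgG, and Plekha1, an adaptor that binds phosphoinositides, had 1354 with IFNg against 2186 with IgG. Atp2b1, a calcium pump of the plasma membrane, had 3362 with IFNg against 4950.2 with IgG, and Vldlr, a lipoprotein receptor, had 3337 with IFNg against 4906 with IgG. At the other end, 22 of the 158 lowered genes had a mean count under 20.

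**Figure D4:**
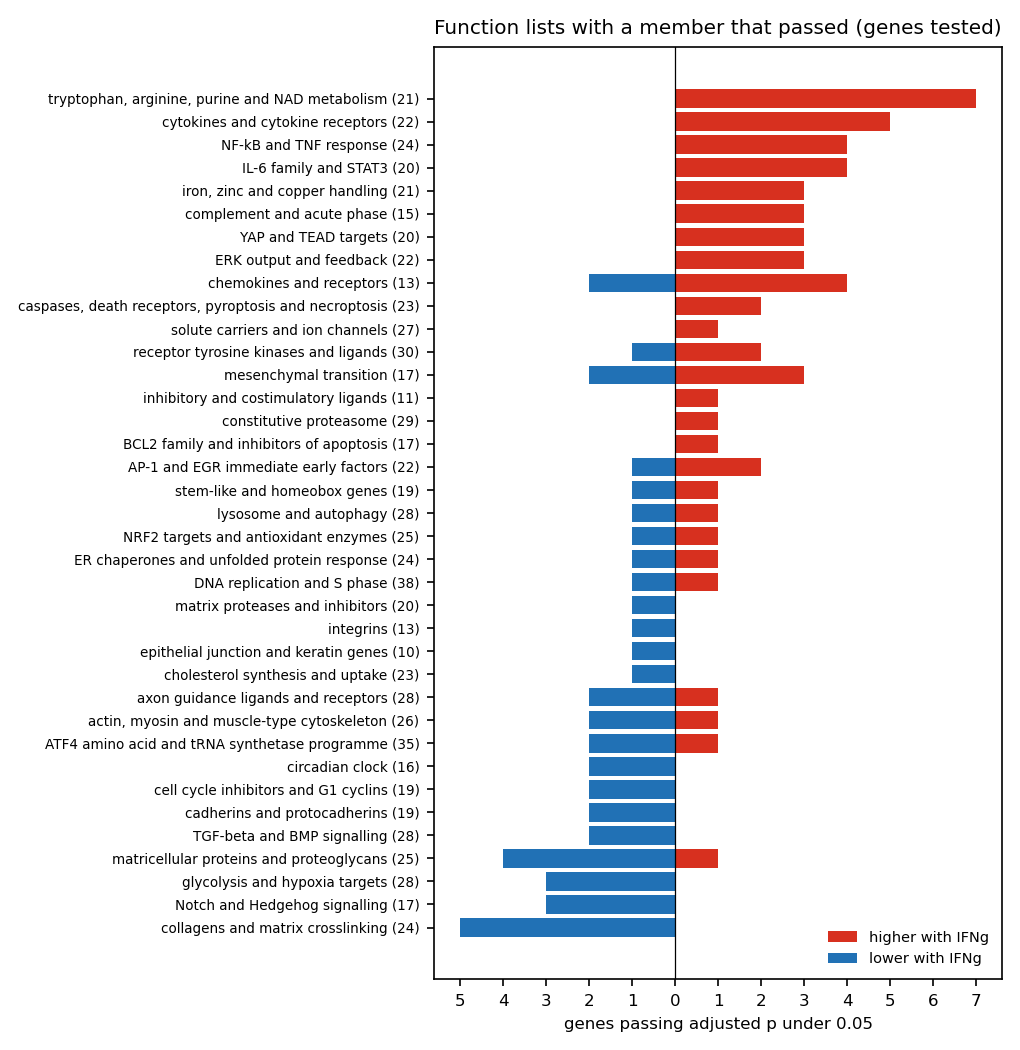
Number of genes higher (right) and lower (left) with IFNg at adjusted p under 0.05 in each function list with a member that passed, with the number tested in brackets. The tryptophan, purine and NAD list has 7 higher and none lower, and the collagen list 5 lower and none higher.

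Over the 46 function lists, 13 had only higher members passing, 11 only lower, 13 both and 9 none. The 9 without a call were mitosis (32 tested), Myc and ribosome biogenesis (33), cytosolic ribosomal proteins (31), oxidative phosphorylation (31), fatty acid and lipid metabolism (31), cytosolic chaperones (17), p53 and its targets (22), Wnt (20) and chromatin modifiers (29). Their medians lay between -0.10 for ribosomal proteins and 0.15 for ribosome biogenesis. Function lists can share genes with the interferon lists, and the raised chemokines Cxcl10, Ccl2 and Ccl5 were in the interferon or broad lists. The list of chemokines and receptors had 4 higher and 2 lower of 13 tested. Among the 37 lists with a call, the share called ran from 3.45% for the constitutive proteasome to 46.2% for chemokines and receptors. It was 4.35% for cholesterol synthesis, 5.26% for DNA replication, 7.14% for TGF-beta and BMP signalling, 20% for the IL-6 family, 20.8% for collagens and 33.3% for the tryptophan, arginine, purine and NAD list, against 4.1% of all genes tested; the lists had been drawn up with earlier results of these data known.

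Against aPD-1, a second reference for the same 3 IFNg samples, 1903 of 12260 tested genes (15.5%) were called, 1029 higher (8.39%) and 874 lower (7.13%). Both comparisons share the IFNg samples and aPD-1 v IgG shares the IgG samples, so the values are only set side by side. Gbp2 had log2 changes of 4.93 ± 0.16 (SE) over IgG and 4.83 ± 0.18 (SE; adjusted p = 5.71e-147) over aPD-1 in the authors' deposited tables. Abca1 had -1.54 ± 0.18 (SE) over IgG and -2.32 ± 0.22 (SE; adjusted p = 1.36e-23) over aPD-1 in the authors' deposited tables, and Vegfa had -0.82 ± 0.12 (SE) and -2.58 ± 0.18 (SE; adjusted p = 8.43e-44). These 3 genes passed in both comparisons. Against aPD-1, Ttn and Vim did not pass: Ttn had -1.17 ± 0.28 (SE) over IgG and 0.55 ± 0.26 (SE; adjusted p = 0.159) over aPD-1 in the authors' deposited tables, and Vim had -0.58 ± 0.17 (SE) and 0.01 ± 0.20 (SE; adjusted p = 0.992). Il13ra1 and Lif were higher than IgG but lower than aPD-1, at -1.36 ± 0.20 (SE; adjusted p = 1.19e-09) and -2.60 ± 0.19 (SE; adjusted p = 1.52e-40) over aPD-1 in the authors' deposited table. In aPD-1+CD8 v IgG, 0 of 15304 genes passed the authors' DESeq2 adjusted p, and 57 had an unadjusted p under 0.05. Those 57 are fewer than a calibrated test would give where nothing differed. The absence of calls there therefore does not show that the groups were alike.

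The 67 genes without a p-value in IFNg v IgG were almost all higher in mean level with IFNg, 65 above and 2 below IgG, and 56 had their highest level of the 4 groups with IFNg. Of them, 37 had a mean count of at least 100, 39 also lacked a p-value in IFNg v aPD-1, and 5 were in the interferon or broad lists. Cxcl9, a chemokine regarded as a hallmark of IFNg, had 452 with IFNg against near 0 with IgG, but its deposited log2 change was 0.69 without a p-value in the authors' deposited table. Slc6a12, the betaine transporter that cells raise under osmotic load, had 1874 with IFNg, 47.1 with IgG, 51.7 with aPD-1 and 92.9 with aPD-1+CD8. Ptgs2, the cyclooxygenase of prostaglandin synthesis, had 1689.9 with IFNg, 160.0 with IgG, 1506 with aPD-1 and 173 with aPD-1+CD8, and Csf1r, the receptor of Csf1, had 354 with IFNg, 27.5 with IgG, 18.4 with aPD-1 and 25.9 with aPD-1+CD8. Cyr61, a YAP target, had 1989.8 with IFNg against 393 with IgG, and the chaperones Cryab, Hspa1b and Hspa4l had 736 with IFNg against 47.4 with IgG, 1627 with IFNg against 421 with IgG and 3604 with IFNg against 1087 with IgG. Hif1a had 9125 with IFNg against 5318 with IgG. The 2 genes below IgG were Cilp (21.1 against 139), a cartilage matrix protein, and Slco2b1 (near 0 against 6.97). A group mean of such a gene can rest on a single sample, which the tables do not show, so none of these is counted among the genes changed.

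**Figure D5:**
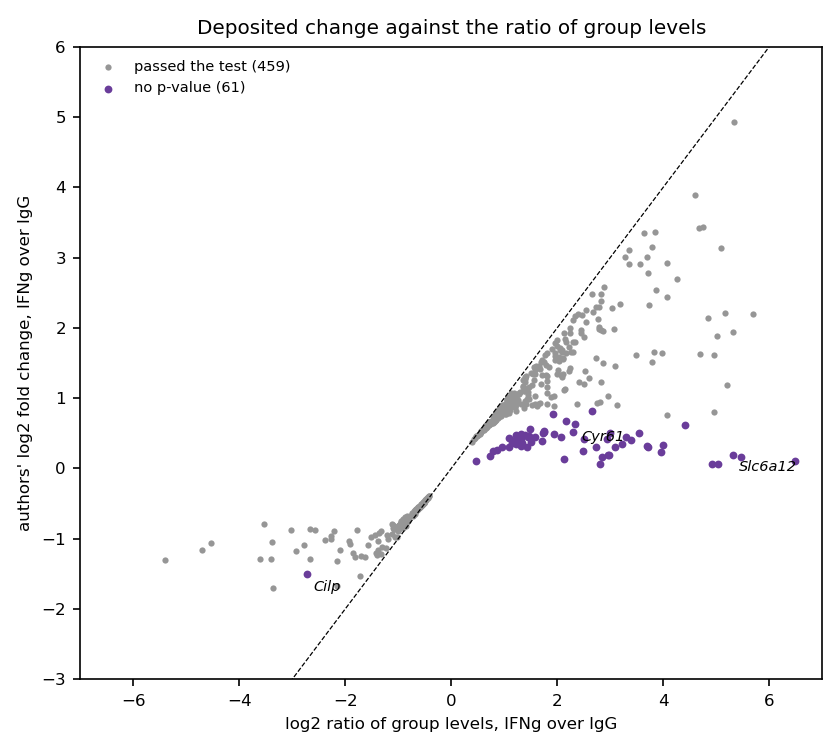
The authors' log2 fold change of IFNg over IgG against the log2 ratio of the group levels, for genes that passed the test (grey) and genes without a p-value (purple); the dashed line marks equal values. On the vertical axis the purple points lie above 0 and reach 0.82 at Tnxb, apart from Cilp at -1.51. Slc6a12 lies at a level ratio of 5.31 and a log2 fold change of 0.20. Most grey points follow the line at small changes and fall short of it at large ones.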

How the data were processed

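The data were 5 tables of the authors' own comparisons of 4 groups of 3 samples. Per the submitters' processing notes the authors made them with DESeq2 on genome build mm9. Its version, the aligner, the counter, the annotation and the strandedness are not given here by labels or headers. Per the file headers, each gene has a mean normalized count (a signal over both groups, scaled by the authors for library size), a log2 fold change, its standard error, the Wald score and p-values before and after adjustment. The deposited values hold no counts of single samples (0 such columns), so the tests are the authors', depth per sample is unknown, and the count test planned for single samples was not run. The deposited log2 changes look shrunken: their standard errors stay small for low counts.

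Group levels were solved from the tables' mean normalized counts, since each is the mean of 2 groups. The tables' scales were first matched on genes listed only in the tables of a single group; these ratios deviated by at most 1.02%. A second route to the IgG level differed by a median of 0.097% over 5706 genes. A level or ratio is printed only above 2 times the resulting error bound, which sums this deviation over the tables used. The calculation was tested on simulated data. Python 3.11.15, pandas 2.3.3, numpy 2.4.6, scipy 1.17.1 and matplotlib 3.10.9 were used.

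Genes were called at adjusted p under 0.05. A total of 60 gene lists (6 interferon, 1 broad interferon, 46 function, 7 marker) matched 1654 of 1795 entries by symbol or synonym. Members and lists were chosen with earlier results of these data known. Named genes were taken from the 20 with the smallest p and the 20 with the largest change outside the interferon lists, and from the 30 lowered by each of these measures. They were also taken from the leading members of each interferon list, and in every other list from the members that passed and the most abundant that did not. Not every gene that meets these rules is named. Any other gene named was picked after its values were seen. RefSeq tables (GRCm38.p6) gave names for 14547 genes and promoters, and no coordinates.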

Additional observations from a re-analysis of the deposited data

How the results depend on the processing

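The counts depend on the threshold. At adjusted p under 0.01, 321 genes passed, 85 of them lower; at 0.1 there were 613. With an absolute log2 change of at least 1, 190 passed, 157 higher and 33 lower, and in IFNg v aPD-1 860 passed. With p-values adjusted again among the genes whose mean count reached 100, 207 were higher; with 10 as the minimum, 465 passed. Adjusted over every gene with a p-value, 426 passed, with 45 called genes lost, among them Cdk2, Tfrc, Osmr, Timp2, Tfec and Clec7a. With 50 bases after the start added, the share of promoters with a GAS or ISRE match was 9.53% of all genes tested and 9.03% of those that did not pass. Members of function lists called went from 95 to 66 at 0.01. The group levels were recomputed by the second route and with scales from 934 genes without a change, both chosen after seeing the data; the log2 level ratios of called genes moved by medians of 0.004 and 0.002 and at most 0.149 and 0.036. No result reversed under these settings. Leaving out each replicate was not run. No paired analysis was possible because the tables hold no columns of single samples. Depth limits the low genes: no level under its error bound is given a ratio.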
